A study of Homo sapiens with 4 samples.

Results

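In 3322 regions of the genome of HK1 cells, chromatin was listed as accessible in both libraries from FLI1-knockout (FLI1-KO) cells and in neither library from wild-type (WT) cells, with or without interferon-gamma (IFN-γ). They were selected on the measured peak calls themselves: the peaks of the 4 lists were merged wherever they overlapped by at least 1 bp, which gave 93211 merged regions on chromosomes 1 to 22 and X, and the members hold a peak of sgFLI1 Control and of sgFLI1 IFN-γ and no peak of either WT list. The presence pattern that defines them is therefore a description and was not tested. They made up 3.56% of all merged regions (95% Wilson interval 3.45 to 3.68%). They are called knockout-only regions here, a name for the pattern in these 4 lists.

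HK1 is an established epithelial cell line from a nasopharyngeal carcinoma. The study made ATAC-seq libraries from WT cells and from cells in which the guide RNA sgFLI1 was used to knock out FLI1, each untreated (Control) or treated with IFN-γ, to ask how FLI1 shapes the chromatin response to that cytokine. One library was given per group, so 4 in all: WT Control, WT IFN-γ, sgFLI1 Control and sgFLI1 IFN-γ. All 4 groups share the HK1 background, and whether the FLI1-KO cells were 1 clone or a pool is not given in the sources used here. The study's methods name a step that keeps only peaks reproducible between experiments (IDR), but how many cultures stand behind each list, and whether the deposited lists passed that step, is not given there. No difference between groups has a replicate check, and no p-value is given; all intervals cover counting error only, in these libraries.

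FLI1 is a transcription factor of the ETS family, whose members bind DNA at a core of GGAA. In ATAC-seq a transposase cuts DNA that is not wrapped in nucleosomes, so a peak marks an accessible stretch such as a promoter, an enhancer or a bound insulator. Many enhancers of epithelial cells hold sites for AP-1 (dimers of FOS and JUN proteins), TEAD factors and RUNX factors, whereas CTCF sites mark insulators and loop anchors that are largely shared between cell types. Bulk ATAC-seq cannot tell more accessible cells from more accessibility per cell, nor either from more copies of the locus.

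The sequence at the summits was not used to choose the regions, and their motif content differed from that of other regions, so 7 stretches are printed from the GRCh38 genome, plus strand, each 60 bp on either side of the summit of the stronger FLI1-KO peak. The set begins with 2 of the strongest knockout-only regions, ranked by the smaller −log10 q of their FLI1-KO peaks, and the only one over a leading protein-coding transcription start that could be shown. They lie at chr6:16910143-16910263 beyond ATXN1, at chr19:30392271-30392391 in intron 1 of ZNF536, and at chr4:75555665-75555785, just before the start of ODAPH. Capitals mark matches to any of 21 motifs; RUNX appears as TGTGGT or its complement ACCACA, and TEAD as GGAATG or CATTCC.
ATXN1: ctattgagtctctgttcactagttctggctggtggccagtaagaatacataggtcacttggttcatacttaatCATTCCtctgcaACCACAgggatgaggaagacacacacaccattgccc
ZNF536: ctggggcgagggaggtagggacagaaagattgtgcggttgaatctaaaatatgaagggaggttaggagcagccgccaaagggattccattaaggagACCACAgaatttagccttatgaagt
ODAPH: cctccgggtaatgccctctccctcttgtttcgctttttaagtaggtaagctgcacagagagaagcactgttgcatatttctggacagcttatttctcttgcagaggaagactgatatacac
The ATXN1 stretch held a RUNX and a TEAD match and the ZNF536 stretch a RUNX match, while the ODAPH stretch held none of the 21. The ranking gives 3 such strongest regions, and the one not shown also held none of the 21. The remaining 4 were chosen after the values were seen, as the strongest knockout-only regions whose 121 bp held both an AP-1 match (TGACTCA or TGAGTCA) and a RUNX match. They lie at chr9:16030683-16030803 within CCDC171, at chr1:91804659-91804779 in intron 2 of TGFBR3, at chr5:170095321-170095441 before FOXI1, and at chr3:58384060-58384180 in intron 4 of PXK. Here capitals mark AP-1 and RUNX matches only.
CCDC171: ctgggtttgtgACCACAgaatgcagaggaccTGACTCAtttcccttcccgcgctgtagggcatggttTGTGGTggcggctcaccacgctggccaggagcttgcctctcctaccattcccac
TGFBR3: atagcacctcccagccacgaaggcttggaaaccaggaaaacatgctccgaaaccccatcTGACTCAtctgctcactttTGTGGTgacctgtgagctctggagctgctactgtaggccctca
FOXI1: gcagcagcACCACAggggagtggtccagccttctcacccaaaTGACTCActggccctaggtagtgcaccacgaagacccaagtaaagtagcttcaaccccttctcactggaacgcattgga
PXK: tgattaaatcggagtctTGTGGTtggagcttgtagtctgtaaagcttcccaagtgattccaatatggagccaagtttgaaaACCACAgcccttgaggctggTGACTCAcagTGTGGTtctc
TGFBR3 encodes betaglycan, a co-receptor for TGF-beta, and its stretch carried the AP-1 match on the summit and a RUNX match from 18 bp after it. The PXK stretch carried 3 RUNX matches and the CCDC171 stretch 2. The TGFBR3 region reached 81 tags in sgFLI1 Control and 52 in sgFLI1 IFN-γ, and the FOXI1 region 39 and 42.

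Of the motifs that were more frequent in the knockout-only regions, RUNX differed most from the other groups in percentage points. A match to TGTGGT on either strand within 100 bp of the summit was found in 26.6% of them (95% Wilson interval 25.2 to 28.2%). The share was 14.0% (13 to 15.2%) in the 3912 regions of the opposite pattern, open in both WT lists and neither FLI1-KO list (WT-only regions). It was 16.3% (15.6 to 17.2%) in 8300 regions of like strength, which had peaks in both FLI1-KO lists within the interquartile range of the knockout-only regions and also a peak in at least 1 WT list. RUNX factors are DNA-binding subunits that act with CBFB and have known parts in squamous epithelium and in blood. In the 40876 regions listed in all 4 libraries the share was 13.7%, and over all merged regions it was 15.2%, so that the interval of the knockout-only regions lay above that of every other group.

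The relative difference was larger for a longer form of the motif, and the share grew with peak strength. TGTGGTT was found in 12% (10.9 to 13.2%) of knockout-only regions, 4.70% of WT-only regions and 5.89% of regions of like strength. Read in reverse order, the letters of the short motif (TGGTGT), which keep its base composition, gave 12.6%, 11.3% and 11.2%, a far smaller spread. Among the knockout-only regions themselves, the RUNX share was 21.7% in those with 7 to 12 tags in sgFLI1 Control, 25.9% with 13 to 16 tags, 29.1% with 17 to 23 tags and 30.8% with 24 tags or more. It was 28.0% beyond 3 kb from a protein-coding transcription start and 19.0% within 3 kb.

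AP-1 was the most frequent of the 21 motifs in the knockout-only regions, although its difference from the other groups was smaller. TGACTCA was found in 26.9% of them (25.5 to 28.5%), against 19.0% (17.8 to 20.3%) of WT-only regions, 20.9% (20.1 to 21.8%) of regions of like strength. The same letters in reverse order, ACTCAGT, gave 4.49%, 3.73% and 3.61%. TEAD matches, GGAATG, were found in 19.0% (17.7 to 20.4%) of knockout-only regions against 16.3% and 15.9% in the WT-only regions and those of like strength. TEAD factors are the DNA-binding partners of YAP and TAZ.

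AP-1 and RUNX matches occurred together about as often as their separate shares imply. Both were present in 258 knockout-only regions, 7.77% (6.90 to 8.73%), where the product of the separate shares is 7.18%. Both were present in 90 of the WT-only regions and in 280, or 3.37%, of the regions of like strength. At least 1 of them was found in 45.8% (44.1 to 47.5%) of knockout-only regions, 30.7% of WT-only regions and 33.9% of regions of like strength. Knockout-only regions with an AP-1 match carried a RUNX match in 28.8% (26.0 to 31.9%) and those without in 25.8% (24.1 to 27.6%), so these intervals overlapped.

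Both motifs were centred on the summits. In 40-bp bins, RUNX matches in the knockout-only regions reached 7.89% in the bin from 0 to 40 bp after the summit and 6.53% in the bin before it, and fell to 3.28% and 3.31% in the outermost bins, 160 to 200 bp away. In regions of like strength the RUNX share of the same bins was 4.14% and 3.82% at the summit and 3.01% and 2.89% at the edges. AP-1 matches rose from 1.11% and 1.29% at the edges to 9.06% and 8.04% at the summit in knockout-only regions, and to 6.87% and 6.60% in those of like strength. The separation between the groups thus lay near the summit, and at the edges the groups were closer together.

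**Figure D1:**
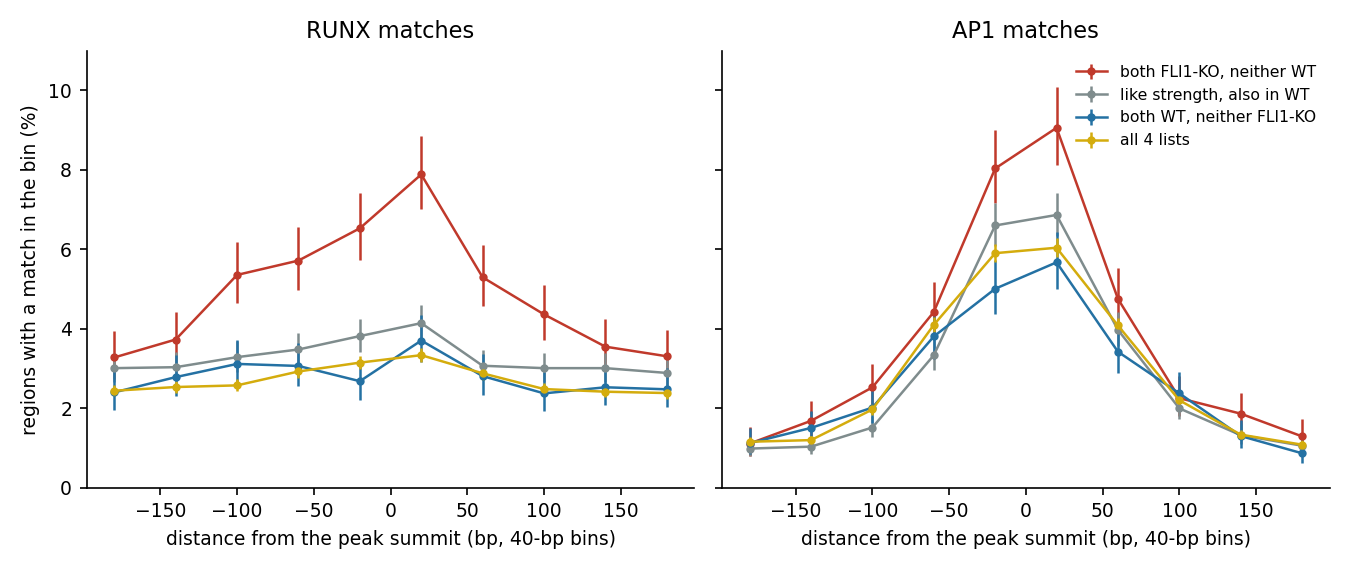
Share of regions (%, vertical axis) with a RUNX (left) or AP-1 (right) match in each 40-bp bin from 200 bp before to 200 bp after the peak summit (horizontal axis), with 95% Wilson intervals, in knockout-only regions and 3 other groups. Knockout-only regions (red) reach 7.89% for RUNX and 9.06% for AP-1 in the bin from 0 to 40 bp, against 4.14% and 6.87% in regions of like strength (grey).

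Several other motifs were rarer in the knockout-only regions than in WT-only regions and in regions of like strength. The CTCF motif, written here by name, was found in 2.92% (2.40 to 3.55%) of them, against 12.2% (11.6 to 13%) of regions of like strength, 6.47% of WT-only regions and 8.62% of regions in all 4 lists. Within the knockout-only regions it fell from 4.50% in the class of 7 to 12 tags to 0.998% in the class of 24 tags or more. IRF matches, GAAANNGAA, which interferon regulatory factors bind, were found in 4.15% (3.53 to 4.89%), against 8.36% and 6.80%. FOX matches, TGTTTAC, were found in 2.29% against 5.57% and 3.70%, and GATA matches, AGATAA, in 9.18% against 13.6% and 11.6% (each time WT-only regions, then those of like strength). In regions of all 4 lists the shares were 5.34% for IRF and 2.75% for FOX. GATA was lower there than in the knockout-only regions, at 7.60% (7.35 to 7.86%), and it was 9.41% over all merged regions.

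The ETS motif was scarce. CCGGAAGT, a high-affinity ETS site, was found in 0.241% of knockout-only regions (0.122 to 0.475%), in 0.332% of WT-only regions and in 0.193% of regions of like strength, with overlapping intervals. Over all merged regions, which include many more promoters, it was found in 1.01%. A run of 3 adjacent GGAA copies was found in 0.120% of knockout-only regions and a run of 4 in none. Of the remaining motifs, the MYC type of E-box, CACGTG, was found in 3.67% (3.08 to 4.37%) against 2.61% and 2.51%, and the ZEB type, CAGGTG, in 15.4% (14.2 to 16.7%) against 16.5% and 18.1%. The NF-kappaB motif, given by name, was found in 3.46%, 3.58% and 3.46%.

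**Figure D2:**
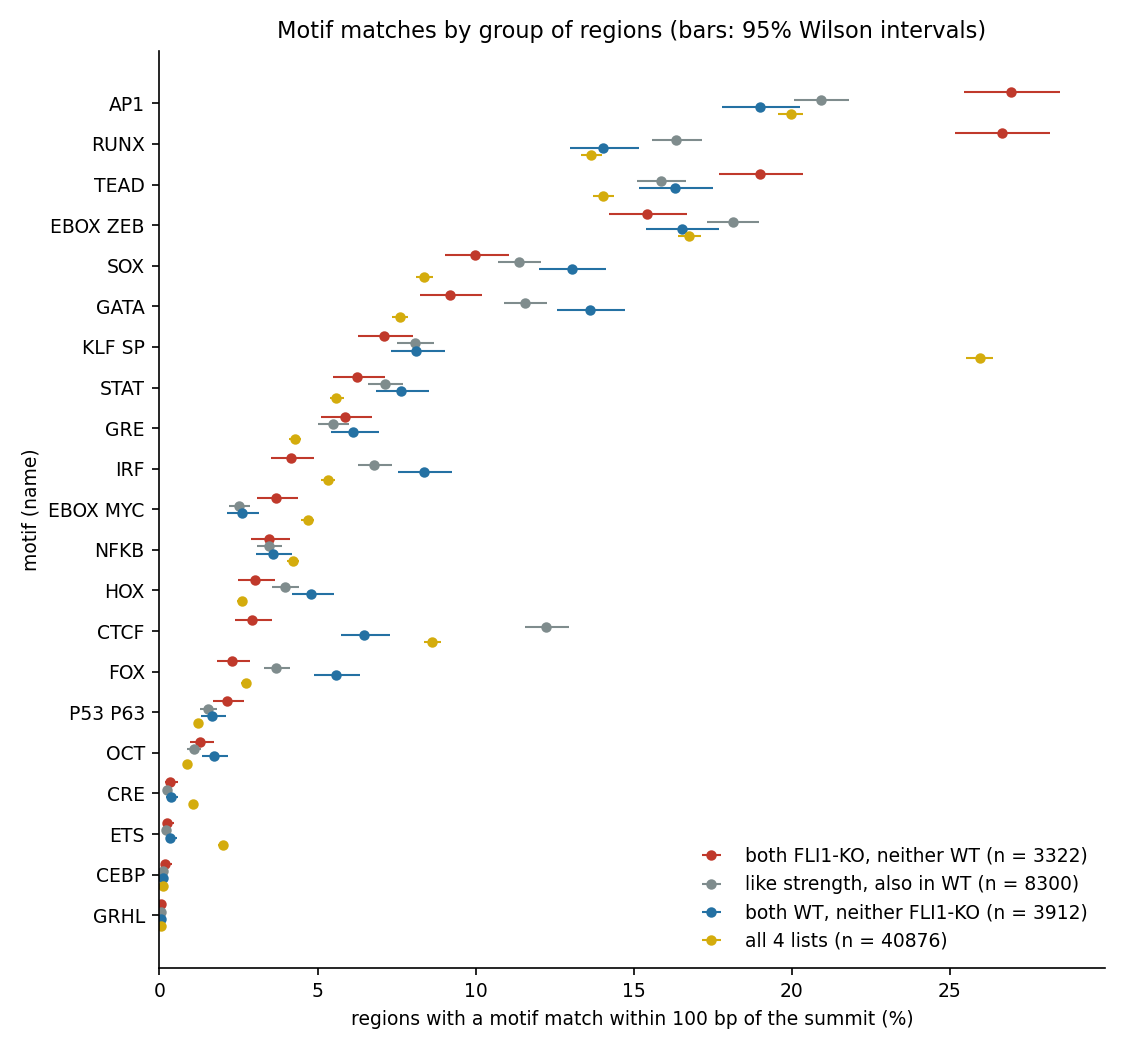
Share of regions (%, horizontal axis) with a match to each of 21 named motifs within 100 bp of the summit (vertical axis), in knockout-only regions (red), regions of like strength that also had a WT peak (grey), WT-only regions (blue) and regions of all 4 lists (yellow); bars are 95% Wilson intervals. RUNX, at 26.6%, and AP-1, at 26.9%, lie to the right of every other group, and CTCF, at 2.92%, to the left.

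Base composition moved with these groups. The median GC content of the 201 bp around the summit was 50.2% in knockout-only regions, 44.8% in WT-only regions, 47.3% in regions of like strength and 54.7% in regions of all 4 lists. Within classes of GC content, a comparison added after the data were seen, RUNX was higher in the knockout-only regions than in both other groups in every class: below 40% GC the share was 32.0% in 300 knockout-only regions, 14.6% in WT-only regions and 16.9% in regions of like strength. From 40 to 50% GC it was 29.6%, 13.7% and 17.5%, and from 50 to 60% GC it was 25.5%, 13.9% and 16.8%. From 60% GC upwards it was 16.5% (13.3 to 20.4%), 13.8% (10.7 to 17.6%) and 9.62%, so that the intervals of knockout-only and WT-only regions overlapped there and the other groups changed places. AP-1 was higher in the knockout-only regions from 40 to 50% GC, at 31.0% against 20.5% and 23.3%, and from 50 to 60% GC, at 27.6% against 14.3% and 20.3%. From 60% GC upwards it was also higher, at 15.8% (12.6 to 19.6%) against 6.77% and 7.94%. Below 40% GC it was not, at 21.3% (17.1 to 26.3%) against 24.3% and 23.8%. CTCF was rarer than in regions of like strength in all 4 classes, at 3.00% against 12% below 40% GC and 3.36% against 9.73% from 60% GC upwards. GATA differed little within classes: below 40% GC the share was 23.3% (18.9 to 28.4%) against 23.2% and 20.5%, from 40 to 50% GC 12% (10.3 to 13.8%) against 13.8% and 13.6%, and from 50 to 60% GC 5.52% against 5.65% and 6.24%. TEAD was higher from 40 to 50% GC, at 21.6% against 17.4% and 18.3%, and from 50 to 60% GC, at 19.6% against 17.2% and 14.6%, but below 40% GC it was 15% (11.4 to 19.5%) against 15.7% and 16%, and from 60% GC upwards 11.8% against 12% and 9.06%. IRF was rarer from 40 to 50% GC, at 4.87% against 8.77% and 7.57%, and from 50 to 60% GC, at 3.28% against 7.91% and 5.41%, but below 40% GC was 8.67% (5.98 to 12.4%) against 9.42% and 9.15%.

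Most knockout-only regions were weak peaks, close to the lower end of what the caller listed. The pileup, the number of tags over the summit recovered from the deposited fold and p-value, had a median of 16 tags in sgFLI1 Control (interquartile range 12 to 23, lowest 7, highest 175). In sgFLI1 IFN-γ the median was 14 tags (11 to 21, lowest 7, highest 141). Regions in all 4 lists had medians of 42 and 38 tags in the same libraries, and WT-only regions 17 and 18 tags in WT Control and WT IFN-γ. In the sgFLI1 Control list 479 knockout-only regions (14.4%) stood above the list's median −log10 q, and in the sgFLI1 IFN-γ list 334 (10.1%). Their median −log10 q was 6.36 and 5.25.

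The stronger a region was in FLI1-KO cells, the more often WT cells shared it. Of the 48600 regions with peaks in both FLI1-KO lists, the knockout-only regions were 6.84%. Where both pileups lay between 7 and 10 tags they were 47.6% of 531 regions, from 15 to 19 tags 12.5% of 2368, and at 30 tags or more 1.40% of 25059. That last class still held 352 knockout-only regions. At the edge of the rule, the weakest members were a region before PLEKHG4B (14 and 7 tags), one near RASSF10 (7 and 12 tags) and one in EPB41L1 (15 and 10 tags), each with a smaller −log10 q of 1.34. Just outside it were a region within MRPS22 with 37 and 31 tags in the FLI1-KO libraries and a WT Control peak of 16 tags, one near YDJC with 26 and 29 tags and a WT Control peak of 20, and one in KCNMA1 with 20 and 12 tags and a WT Control peak of 8. These WT peaks had −log10 q values of 1.34, 1.36 and 1.47, and none of the 3 regions had a WT IFN-γ peak.

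**Figure D3:**
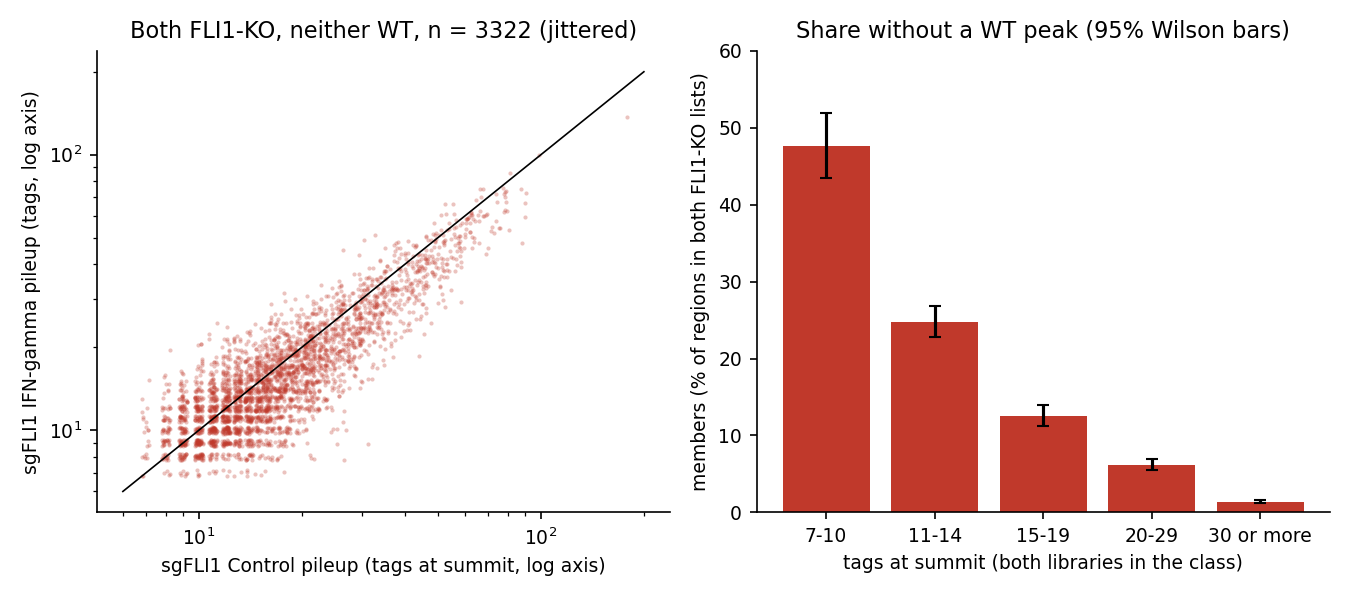
Left, pileup in tags of each of the 3322 knockout-only regions in sgFLI1 Control (horizontal, log axis) and sgFLI1 IFN-γ (vertical, log axis), jittered, with the line of equal tags; medians are 16 and 14. Right, knockout-only regions as % of regions with peaks in both FLI1-KO lists (vertical, with 95% Wilson intervals) by class of tags (horizontal), falling from 47.6% to 1.40%.

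What the WT level was at these places cannot be read from the lists. The WT libraries had the higher tag densities (8.04 and 8.84 tags per kb against 6.93 and 6.86), so a FLI1-KO pileup scaled to the WT library of the same treatment passes that library's lowest listed p-value by construction, in all 3322 cases. At the lower bound of each pileup's exact Poisson interval, 2035 would have been listed in WT Control, 1934 in WT IFN-γ and 1505 (45.3%) in both. These counts use the FLI1-KO pileups on which the regions were selected and no WT counting error, so they describe how near to the listing limit the regions lie and do not show that WT cells had less signal. Some WT peaks were close by: 250 knockout-only regions (7.53%) lay within 1 kb of a WT peak and 77 within 500 bp, with a median distance of 8.26 kb.

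The peaks of the 2 FLI1-KO libraries lay at nearly the same places, which the rule only required in part. Their summits were a median of 66 bp apart, within 50 bp in 41.7% and within 200 bp in 81.4%. In regions of like strength the median was 49 bp and the shares were 51.1% and 87.2%. The log2 pileups of the 2 libraries correlated across the knockout-only regions with a Pearson coefficient of 0.855 and a Spearman coefficient of 0.788, a description across regions that share libraries and are not independent replicates.

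The median response of the knockout-only regions to IFN-γ in FLI1-KO cells was close to that of shared regions. Over the 3301 with 1 peak in each list, the log2 ratio of sgFLI1 IFN-γ to sgFLI1 Control, per tag density, had a median of -0.12 (interquartile range -0.36 to 0.12). The median was -0.14 in regions of all 4 lists and -0.09 in those of like strength, so against the shift of all shared regions the knockout-only regions stood at 0.02. All these groups hold only regions with a peak in both FLI1-KO lists. Regions that IFN-γ opened or closed past the listing limit are therefore left out, and these medians cannot show such responses. Of the 3301, 115 (3.48%) were at least 1.5-fold higher with IFN-γ, against 2.46% of all regions with 1 peak in each FLI1-KO list. At least 1.5-fold lower were 344 (10.4%), against 6.91%. Both shares were above the background, but the knockout-only regions had lower pileups. Their medians were 16 and 14 tags, against 42 and 38 in regions of all 4 lists. Ratios of low counts spread more widely in both directions, and the part of counting error in these shares was not tested. In regions of like strength, whose tags are bounded on both sides in both libraries, the shares past 1.5-fold were 1.89% and 6.11%. At 2-fold, 11 were higher and 31 lower. Regions with a RUNX match had a median of -0.15 and those without -0.11, while for AP-1 the medians were -0.15 and -0.12.

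The 8 strongest knockout-only regions, by the smaller −log10 q, were all distal to the canonical starts of protein-coding genes. The strongest, chr6:16909607-16911365, lay at -149 kb from ATXN1, which encodes a polyglutamine protein of cerebellar ataxia, and reached 86 tags (exact Poisson interval 68.8 to 106) in sgFLI1 Control and 73 (57.2 to 91.8) in sgFLI1 IFN-γ. The nearest WT peak was 18.6 kb away. In intron 1 of ZNF536, a zinc-finger gene, chr19:30391790-30393323 reached 68 (52.8 to 86.2) and 75 (59.0 to 94.0) tags, with no WT peak within 219 kb. A region in intron 3 of CLPB, which encodes a mitochondrial disaggregase, reached 46 and 43 tags. The region chr11:130383408-130384354, at 44.8 kb from the ADAMTS8 start, reached 68 and 60, and chr13:110853040-110853913, at 61.6 kb from the ANKRD10 start, reached 55 and 53. The other 3 were on chromosome 8: at -26.0 kb from CDH17, a cadherin of gut epithelium, with 73 and 57 tags, at -126 kb from ZFAT with 64 and 63, and at -89.7 kb from KLF10, a TGF-beta-induced factor, with 79 and 62. All 8 had intervals that overlapped between the FLI1-KO libraries.

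Few knockout-only regions were promoters. Within 3 kb of any annotated start of a protein-coding gene lay 505, or 15.2% (14.0 to 16.5%), against 15.5% of WT-only regions, 15.1% of regions of like strength and 38.1% of regions of all 4 lists. Most were intronic or intergenic: when those within 1 kb of a start (6.98%) were set aside, 39.6% of all knockout-only regions lay in introns of protein-coding genes, 35.0% between genes, 15.7% in other genes and 2.71% in exons. Of all, 34.3% lay beyond 50 kb from any such start. The share within 3 kb rose with strength, from 9.97% in the class of 7 to 12 tags to 25.7% in that of 24 tags or more. A canonical start itself was covered by 41 knockout-only regions (43 genes).

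The 8 strongest of those promoter regions belonged to genes of varied function. The RUNDC3A promoter, chr17:44308348-44308817, reached 38 and 37 tags in sgFLI1 Control and sgFLI1 IFN-γ. GPIHBP1, which carries lipoprotein lipase in capillaries, reached 62 and 61, with its nearest WT peak 1.19 kb away. RARA, the retinoic acid receptor alpha, reached 62 and 54 in a region over exon 1, chr17:40309117-40309686, whose nearest WT peak was 1.41 kb away. S100A12, a calgranulin of neutrophils, reached 24 and 20 at chr1:153375380-153376146. ODAPH, an enamel phosphoprotein gene, reached 26 and 19. The OPN4 start, which it shares with a gene annotated as ENSG00000289258, reached 40 and 43. DLC1, a gene deleted in several carcinomas, reached 21 and 18. LRRTM3, a synaptic adhesion gene that lies in intron 7 of CTNNA3 and shares its start with ENSG00000289325, reached 18 and 22. Apart from GPIHBP1 and RARA, these promoter regions had between 18 and 43 tags.

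Some genes gathered several knockout-only regions in their body and the 10 kb before it. Counting this way, 1613 of 19970 protein-coding genes held at least 1 and 83 held 3 or more. KAZN, which encodes a protein of the desmosome and cornified envelope, held 7 of its 40 merged regions, with pileups of 9 to 40 tags in sgFLI1 Control and 9 to 43 in sgFLI1 IFN-γ, and no WT-only region. PRICKLE2, a planar cell polarity gene, held 6 of only 11 (12 to 30 and 10 to 30 tags). MYLK, myosin light chain kinase, held 6 of 28 (12 to 30 and 17 to 23 tags), and FRMD4A, a scaffold of epithelial polarity, 6 of 31. ZMIZ1 held 5 of 31 (15 to 50 and 12 to 38 tags) and PALD1 5 of 20. FRMD4A and PALD1 each also held 1 WT-only region, and PRICKLE2, MYLK and ZMIZ1 held none. Some regions lay close to a WT peak: at 0.438 and 1.11 kb in ZMIZ1, 0.508 kb in FRMD4A, and 0.873, 1.36 and 1.7 kb in PALD1. Those of KAZN, MYLK and PRICKLE2 lay 4.398 kb or more from a WT peak. Most of the KAZN regions lay outside its canonical transcript, as far as -633 kb from its canonical start. PRICKLE2 and PALD1 also had regions outside their canonical transcripts. Such counts grow with the length of a gene, which is 1225 kb for KAZN and 190 kb for PALD1.

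In the gene lists examined, 53 of 309 genes (17.2%, 13.4 to 21.8%) had a knockout-only region within 10 kb of the gene body, where 9.51% of all protein-coding genes did. WT-only regions lay near 62 of the same 309 and near 12% of all coding genes, so the lists are rich in both patterns. WT-only regions were near more genes than knockout-only ones for neural adhesion (14 against 8), WNT (7 against 4) and EMT (6 against 5). So they were for kinases and MAPK (6 against 5) and squamous factors (5 against 2). The same held for IFN-γ (4 against 3), kynurenine (3 against 1) and SWI/SNF genes (3 against 1). They were near fewer integrin (4 against 7), ETS (3 against 5), keratin (3 against 5) and acetylation genes (2 against 5). AP-1 had 3 of each. The ETS list had 5 of 27: ETV6 (16 and 13 tags, intron 1), ETS1 (12 and 17, at -6.02 kb), SPDEF (19 and 20, at -4.53 kb), ELF1, and FLI1 itself, in introns 1 and 4, with 13 and 10 and with 14 and 9 tags. No peak list reads the edited site, so these values do not check the knockout.

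Of 17 AP-1 genes, 3 had a knockout-only region. The one 2.32 kb beyond the JUNB start, chr19:12793522-12794057, had 88 and 73 tags, the highest of the listed genes, yet a fold over local background of only 2.14 and 1.80, and lay 1.57 kb from a WT peak. That in exon 4 of FOS, chr14:75280775-75281440, had 74 tags in each library and folds of 1.67 and 1.74, and lay 1.36 kb from a WT peak. The local background the caller used was thus high at both genes. In NFE2L2, the antioxidant response factor, the values were 9 and 11 tags. Of 20 squamous and epithelial factors, GRHL3, which drives epidermal differentiation, held 4 regions, the strongest with 63 and 59 tags at -29.2 kb from its start (chr1:24290066-24290373), and RUNX1 held 2, with 13 and 11 tags in intron 2 and 14 and 11 at -141 kb.

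Genes of adhesion and the epithelial surface came from 4 of the lists. The integrin and laminin list had 7 of 21, among them COL17A1, the hemidesmosomal collagen (31 and 36 tags), ITGA5, the fibronectin receptor subunit (32 and 27), LAMA4 (38 and 27), LAMA3 (20 and 18) and ITGB1 (21 and 17). ITGA5 and LAMA3 each also had 2 WT-only regions within 10 kb. The LAMA4 region lay 0.998 kb from a WT peak, and the smaller −log10 q at ITGA5 was only 2.37. The keratin, desmosome and claudin list had 5 of 28: KRT5, a basal keratin (34 and 27), KRT13 and KRT15, which share a region (23 and 28), and CLDN1 and CLDN16, which share another (13 and 11) directly at the CLDN1 start. The region of KRT13 and KRT15 lay 1.00 kb from a WT peak, and the smaller −log10 q at KRT5 was 3.22. The EMT list had 5 of 22, with SPARC at 39 and 30 tags, CDH1, the E-cadherin gene, at 16 and 15 in intron 2, TWIST2 at 12 and 12, and SNAI1 at 10 and 12. The neural adhesion list had 8 of 26, with PCDH9 and CNTNAP2 at 21 and 18 and at 21 and 16 tags, but also 14 of 26 with a WT-only region. Of the genes named from the lists, SPARC, CDH1, FLI1, NFE2L2, WNT7B, HDAC9, CNTNAP2, IFNGR2, EPHA2 and ROR1 each had 1 WT-only region within 10 kb, and PCDH9 had 2.

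Kinase and WNT genes followed. The receptor tyrosine kinase and MAPK list had 5 of 28: EPHA2, an ephrin receptor of epithelia (65 and 76 tags in intron 3, chr1:16139245-16140204), DUSP5, an ERK phosphatase (58 and 57), ROR1, a WNT5A receptor (35 and 35), EPHB4 (41 and 31) and EPHB2 (22 and 29). The 2 EPHA2 values differed by less than their Poisson intervals. The DUSP5 region lay 1.04 kb from a WT peak and had folds over local background of 2.47 and 2.60. The smaller −log10 q at EPHB4 was only 2.27. The WNT list had 4 of 29, with WNT7B at 46 and 32, WNT3A at 32 and 23, TCF7L2 at 29 and 20 and TCF7L1 at 12 and 9 tags. WNT3A and TCF7L2 each held another region, with lower −log10 q. The WNT3A region with 32 and 23 tags lay 0.990 kb from a WT peak, and the WNT7B region 1.33 kb.

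The acetyltransferase and deacetylase list had 5 of 17, all 5 of them deacetylases: HDAC5 (57 and 56 tags in intron 3), HDAC7 (27 and 24), HDAC4 (4 regions, the highest-ranked with 16 and 11), HDAC9 (18 and 10) and SIRT1 (10 and 9). The HDAC5 region lay 0.774 kb from a WT peak, and the HDAC7 region with 27 and 24 tags 1.32 kb. Whether the deacetylases of this list differed from its acetyltransferases was not tested, and such counts grow with gene length. The SWI/SNF list had 1 of 19, SMARCA2 (22 and 14). Among 48 genes of IFN-γ signalling and its targets, 3 had a knockout-only region, among them IFNGR2, a subunit of the IFN-γ receptor (43 and 41 tags at -2.19 kb), and PDCD1LG2, the PD-L2 gene (48 and 36 at -9.68 kb). That was 6.25% (2.15 to 16.8%) of the list, an interval that includes the 9.51% of all coding genes. Of 9 kynurenine genes, TDO2, which encodes a tryptophan dioxygenase, had 1, at -3.01 kb, with 18 and 10 tags.

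**Figure D4:**
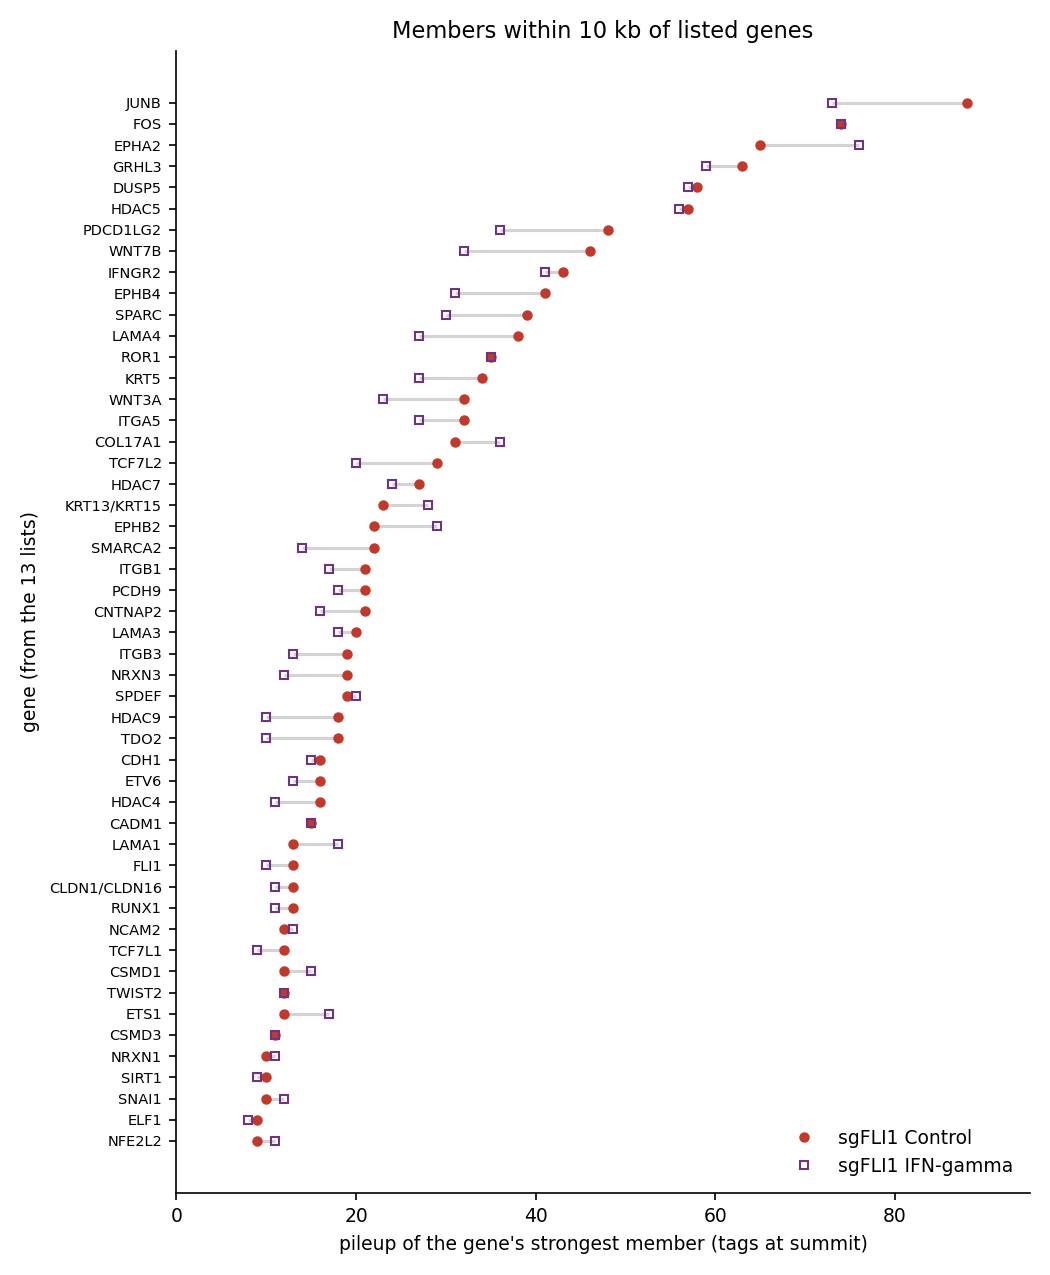
Pileup in tags (horizontal axis) of the highest-ranked knockout-only region within 10 kb of genes of the 13 lists (vertical axis), in sgFLI1 Control (filled circles) and sgFLI1 IFN-γ (open squares). JUNB (88 and 73), FOS (74 and 74), EPHA2 (65 and 76) and GRHL3 (63 and 59) stand highest, and most others lie below 50 tags.

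Knockout-only regions were unevenly spread over chromosomes. They were 4.86% of the merged regions on chromosome 21 (3.71 to 6.33%), 4.46% on chromosome 10 and 4.36% on chromosome 4, against 1.77% on chromosome 19 (1.37 to 2.27%), 2.16% on chromosome 16 and 2.16% on chromosome 18. The ratio of FLI1-KO to WT pileup at shared peaks was taken per tag density and centred on its median over all shared peaks. It is thus relative to the median shared peak, and a value near zero does not mean equal signal. This ratio was lowest where the shares were lowest: its median log2 was -0.33 on chromosome 18, -0.30 on chromosome 16 and -0.23 on chromosome 19 without IFN-γ. On the chromosomes of the highest shares it was near zero, at 0.001 on chromosome 21, 0.05 on chromosome 10 and 0.04 on chromosome 4, while it was highest on chromosome 13, at 0.16 with a share of 4.15%. Chromosome 9, at -0.20, had a share of 3.53%. Over the 23 chromosomes the share and this ratio had a Pearson coefficient of 0.747 and a Spearman coefficient of 0.636, and all points share the same libraries. A difference in copies of a chromosome and a difference in accessibility cannot be told apart in these lists.

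The same held at the scale of 1-Mb windows, in a comparison added after the data were seen. Only windows with at least 10 shared peaks were used, which held 2633 knockout-only regions and left out 689. Where the shared peaks of a window had a median log2 ratio of 0.3 or more, knockout-only regions were 7.05% (6.16 to 8.06%) and WT-only regions 1.90% of merged regions. Where the ratio lay between -0.1 and 0.1, the shares were 3.42% and 3.27%, and below -0.3 they were 1.94% and 6.53%. The RUNX share of the knockout-only regions did not follow this gradient: it was 28.4% (22.6 to 35.1%) in the windows of the highest ratio, 25.8% (23.4 to 28.3%) in those between -0.1 and 0.1, and 30.9% (22.6 to 40.7%) in those below -0.3. The AP-1 shares were 31.0%, 28.8% and 20.6%, with the intervals of the first and last, 24.9 to 37.7% and 13.8 to 29.7%, overlapping.

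**Figure D5:**
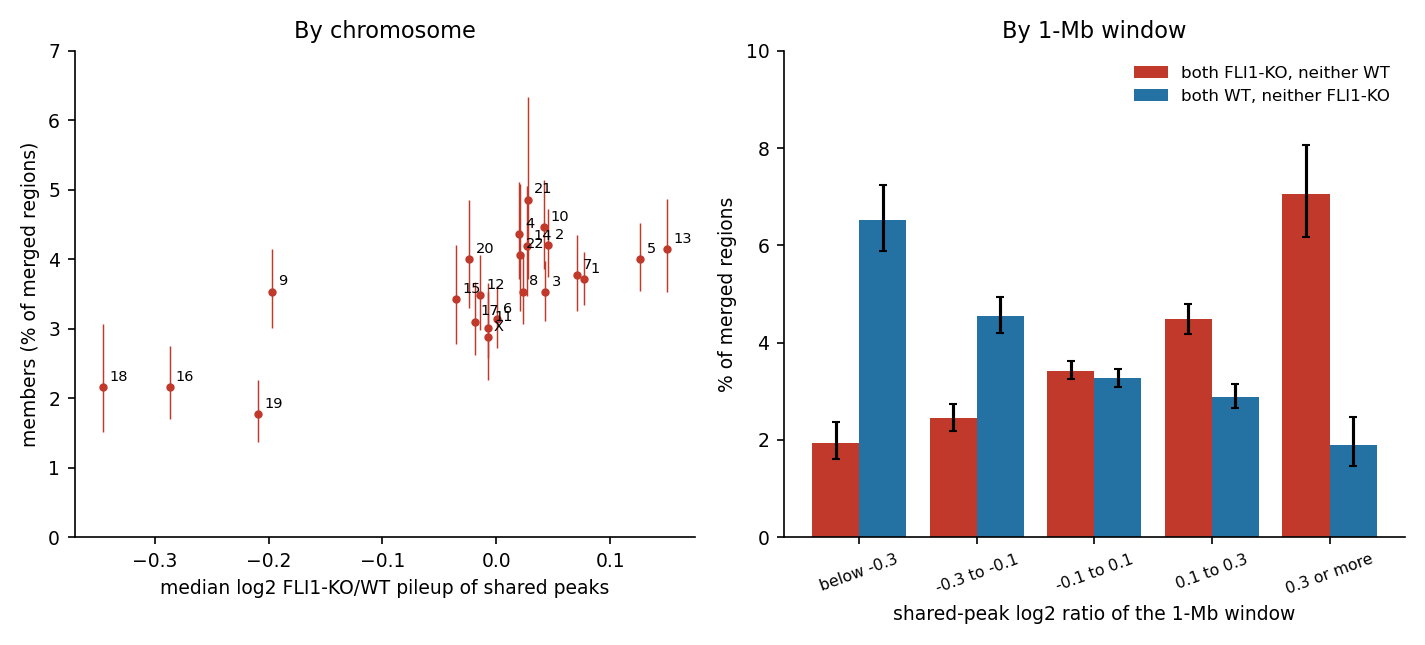
Left, knockout-only regions as % of merged regions on each chromosome (vertical axis, with 95% Wilson intervals) against the median log2 ratio of FLI1-KO to WT pileup at shared peaks, centred on the median of all shared peaks, mean of both treatments (horizontal axis); chromosomes 16, 18 and 19 lie at the lower left. Right, knockout-only (red) and WT-only (blue) regions as % of merged regions by class of that ratio in 1-Mb windows with at least 10 shared peaks, from 1.94% and 6.53% to 7.05% and 1.90%.

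Knockout-only regions were found in many parts of the genome. Whether they lay closer together than other groups of regions was not tested. They fell in 1591 of the 2855 windows of 1 Mb that held any region, 40.8% had another within 100 kb, and the 103 windows with 5 or more held 599. The richest was 237 to 238 Mb of chromosome 2, around COL6A3 and LRRFIP1, with 9 of 68 regions and shared-peak log2 ratios of 0.22 without and 0.30 with IFN-γ. Next came 30 to 31 Mb of chromosome 13, around HMGB1 and ALOX5AP (8 of 77 regions, ratios 0.41 and 0.25), and 119 to 120 Mb of chromosome 1, around PHGDH and NOTCH2 (8 of 37, ratios 0.32 and 0.25). The window at 185 to 186 Mb of chromosome 1, with HMCN1, held 8 of 39 at ratios near zero, 0.08 and -0.02. Among further windows with 8 was 21 to 22 Mb of chromosome 9 (8 of 57 regions), named after its values were seen. Its shared peaks, in a stretch with the IFN-alpha genes, MTAP and CDKN2A, had log2 ratios of 0.86 and 0.77.

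The libraries held 59629 (WT Control), 67470 (WT IFN-γ), 63203 (sgFLI1 Control) and 59923 (sgFLI1 IFN-γ) peaks. A peak lay within 1 kb of the canonical start of 5 to 6 of 10 epithelial marker genes in each library, with EPCAM and KRT8 in every one, and of 1 of 6 leukocyte markers, CD14. TP63, GRHL2 and ESRP1 had none at the canonical start, although GRHL2 had one at another annotated start in every library. Of 5 mesenchymal markers 2 had a peak in every library, and of 4 endothelial markers 0 to 1. Each of these counts differed by at most 1 between libraries.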

How the data were processed

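ATAC-seq peak lists of HK1 cells, 1 per group (WT or FLI1-KO, Control or IFN-γ), were used. According to the submitters' processing notes the tools included Trimmomatic 0.3, Bowtie2 2.3.4.1, SAMtools, Picard and MACS2 2.1.2, with GRCh38; whether tags were shifted for the transposase is not given in the sources used here. Each deposited narrowPeak list gives a display score, the fold of the summit over local background, −log10 p and −log10 q by the authors' caller, and the summit. The score column was not analysed. No read counts were used here, so depth is known only through the peaks: the pileup and the local background of each summit were recovered from the fold and −log10 p by the Poisson law (all peaks, tolerance 0.001), and tag density was taken from each library's lowest background.

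Peaks were merged at an overlap of 1 bp. Genes were taken from GENCODE 44 and sequence from GRCh38, with 21 motifs searched on both strands. Shares carry 95% Wilson intervals and pileups exact Poisson intervals. Python 3.11.15, pandas 2.3.3, scipy 1.17.1 and pysam 0.24.0 were used, and the code was tested on simulated data. With 1 library per group no test was made.

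The regions named are the 8 with the largest smaller −log10 q, the 8 such over a coding start, the 6 genes and 4 windows with the most members, the 3 leading genes of each of 13 lists, and the 3 on either side of the rule; the other listed genes and regions named were chosen after their values were seen. Sequences were printed neither from chromosome 8 nor from untranslated exons. A listed gene and a sequence that these rules select are not reported here. Members, gene lists and motifs were chosen with earlier results of these data known.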

Additional observations from a re-analysis of the deposited data

How the results depend on the processing

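No paired analysis was possible because each group has 1 library, and for the same reason no library could be left out in turn. Of 3322 knockout-only regions, 1540 remained when both FLI1-KO peaks needed a −log10 q of at least 5 and 374 at 10, while a distance of 1 kb to WT peaks, lists of equal length and a reciprocal overlap of 50% gave 3072, 3580 and 2541, and the use of all contigs 3322. At the lower Poisson bound, 1505 would have been listed in both WT libraries. The median IFN-γ response turned from -0.12 to 0.020 when scaled by regions of all 4 lists. The promoter share was 6.98% with a window of 1 kb and 14.0% without regions within 1 kb of a WT peak. The AP-1 share was 18.9% in a window of 50 bp and 31.9% at a −log10 q of at least 5. An alternative added after seeing the data gave 28.8%, in 1-Mb windows with at least 10 shared peaks and a log2 ratio within 0.1. The RUNX share under the same settings was 15.8%, 30.7% and 25.8%, against 7.36% and 13.1% of WT-only regions in the first and second. Of the listed genes, 82 had a knockout-only region within 50 kb and 44 within 3 kb. The causes of these movements were not tested beyond what each setting removes or widens.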
